A study of Mus musculus with 9 samples.

Results

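SCC2 is a subclone grown from a single cell of LLC1, a tumour line from a mouse Lewis lung carcinoma, and its 3 RNA-seq libraries are compared here with the 3 libraries of that parental line. Levels are FPKM, the fragments of a gene scaled by its length and by the total of the library. Genes with at least 1 FPKM in at least 3 of these 6 libraries were kept, which were 10408 of the 15768 genes in the deposited table, and the others were not tested. At the edge of this filter, ranked by the third-highest of the 6 values, Capn11 was the lowest gene inside at 1.002 FPKM and Prex1 the highest gene outside at 0.9996 FPKM.

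The series holds 9 libraries, 3 each of LLC1, of SCC2 and of a second subclone, SCC1, and its title asks how such subclones grow in the animal and in culture. Per the labels, all 3 lines were wild-type tumour cells with lung as the tissue, were untreated, and grew in DMEM with 10% fetal bovine serum and antibiotics. Both subclones came from LLC1 by limiting dilution and had been passaged between 5 and 8 times. Each subclone is 1 clone, so a difference described for SCC2 is that of a clone and not of subclones in general. Several of the list changes below were also seen in SCC1. No passage number was given for LLC1, so being a clone and time in culture cannot be told apart. Whether the 3 libraries of a line were grown as separate cultures is not in the labels, and the p-values therefore speak only of the spread among these libraries, which may be technical.

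Lewis lung carcinoma is a tumour that arose in the lung of a mouse, and its cells are widely used because they grow after transplantation into mice of the same strain. A tumour line in culture holds cells that differ from one another in their chromosomes and in which genes are active, and limiting dilution starts a new culture from a single one of them. Expression states that pass through cell division, such as those of imprinted genes and of Hox clusters, are then shared by the descendants of that cell.

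The 9 libraries held 17094808 to 19398657 fragments each, worked back from the FPKM values. Within LLC1 and within SCC2, a chi-square test of fragments between library pairs gave 1.24 to 1.74 per gene over 10355 to 10402 genes, more than counting noise alone, and each library was taken as its own sample. Of the 9 lung epithelial markers in the table, 7 stayed under 1 FPKM in all 6 libraries, with Nkx2-1, Sftpc and Cdh1 near 0. The others were Hopx, at means of 3.76 FPKM in LLC1 and 5.94 FPKM in SCC2, and Ager, at 0.892 and 1.13 FPKM, and the keratins Krt8 and Krt18 of simple epithelia, given below, were abundant. Vim, a filament gene of mesenchymal cells, stood at 3414, 3423 and 3371 FPKM in the LLC1 libraries and 3470.2, 3492 and 3534 FPKM in the SCC2 libraries. Of the markers of other cell types present in the table, 8 of 10 for leukocytes, 2 of 2 for lymphocytes, 5 of 6 for endothelium and 6 of 7 for smooth muscle stayed under 1 FPKM in all 6 libraries. The summed leukocyte markers were 16.3 to 17.7 FPKM in LLC1 and 19.2 to 19.7 FPKM in SCC2, where Cd14 rose by 0.36 on the log2(FPKM + 1) scale and Cd68 fell by 0.33, while Csf1r was at or near 0. The summed smooth muscle markers were 2.10 to 2.80 FPKM in LLC1 and 1.03 to 1.34 FPKM in SCC2. The summed fibroblast markers, of which 4 of 9 stayed under 1 FPKM in all 6 libraries, were 579 to 605 FPKM in LLC1 and 722 to 744 FPKM in SCC2, with Col3a1 as most of the sum. Of the 4 tested fibroblast markers, Col3a1 and Dpt rose and Dcn and Pdgfra fell. Less RNA per cell and fewer cells of a type cannot be told apart in such bulk libraries.

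SCC2 differed from its parent at most genes, mostly by a little. Of the 10408 genes, 7039 passed limma's test at an adjusted p of 0.05 (67.6%), of which 3639 were higher in SCC2 (35.0% of all tested) and 3400 lower (32.7%). At an unadjusted p of 0.05 the count was 7333. For 7366 genes (70.8%) the SCC2 and LLC1 libraries did not overlap. Most of these changes were small: 6189 of the 7039 (87.9%) were under 0.5 on the log2(FPKM + 1) scale on which the test was run, and the median size over all tested genes was 0.16. These counts are the background for the gene groups below: a list in which 35.0% of members rose and 32.7% fell would be like all genes.

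Large changes mostly went down. At 2-fold or more, that is a change of at least 1 on the log2(FPKM + 1) scale, 25 genes were higher in SCC2 (0.240%) and 140 lower (1.35%), so that 84.8% of these genes were lower. After quantile normalization the counts were 53 and 117, and 68.8% were lower. Of the 140 lower genes, 73 passed the level filter only through LLC1, and of the 25 higher genes 6 passed only through SCC2, so those genes had to differ. At 1.5-fold or more, 173 genes were higher (1.66%) and 419 lower (4.03%).

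**Figure D1:**
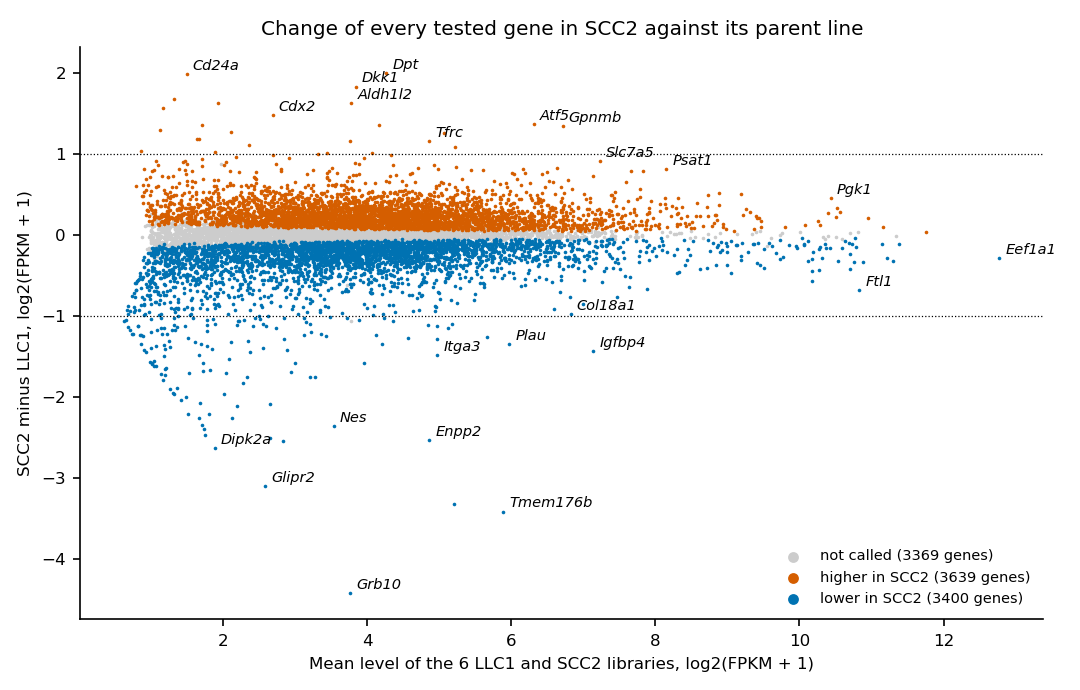
Change of each tested gene between SCC2 and LLC1 on the log2(FPKM + 1) scale (vertical) against its mean level over the 6 libraries (horizontal), with genes that passed limma's test in orange (3639 higher in SCC2) and blue (3400 lower), the others in grey, and dotted lines at a change of 1 in either direction. More points lie below the lower line (140) than above the upper line (25).

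The largest changes were taken among genes with a mean of at least 5 FPKM in the higher line and no overlap between the libraries. Grb10 was the largest fall. It encodes an adaptor that binds and restrains the insulin and IGF receptors, lies at chr11:11930508-12038683 (GRCm38), and is an imprinted gene. Its levels were 24.7, 25.5 and 24.8 FPKM in the LLC1 libraries and 0.211, 0.296 and 0.134 FPKM in the SCC2 libraries. The SCC1 libraries, at 25.5, 23.3 and 24.3 FPKM, were at the parental level, so Grb10 was low in SCC2 libraries only among the 3 lines. The fitted change from LLC1 was -4.42 (SE 0.050, limma adjusted p 7.55e-14), and against SCC1 it was -4.39. Grb10 passed the level filter only through LLC1, so its direction against LLC1 was fixed by the filter.

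Tmem176b and Tmem176a, neighbouring genes on chromosome 6 for related membrane proteins, fell together. Tmem176b was at 104, 108 and 109 FPKM in LLC1 and 9.56, 8.96 and 8.83 FPKM in SCC2, which was 11.8-fold lower by the mean. Tmem176a was at 66.4, 64.9 and 66.5 FPKM in LLC1 and 5.78, 6.08 and 5.18 FPKM in SCC2, or 11.6-fold lower. No SCC2 library came near a parental one for either gene, and both were also lower in SCC2 than in SCC1, whose means were 90.1 and 52.98 FPKM. Their genes lie at chr6:48833818-48841496 and chr6:48840919-48847071 and overlap at one end, where reads may be shared. The fitted changes were -3.42 (SE 0.032, limma adjusted p 1.83e-14) and -3.33 (SE 0.042, adjusted p 1.39e-13).

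Enpp2, which encodes autotaxin, the secreted enzyme that makes lysophosphatidic acid, was at 48.8, 49.5 and 47.6 FPKM in LLC1 and 7.35, 7.91 and 7.47 FPKM in SCC2, a 6.42-fold fall. The other 29 tested genes of lysophospholipid and phospholipid metabolism did not share a direction: the list of 30 had 12 higher and 12 lower members. Nes, the gene of the filament protein nestin found in progenitor cells, was at 18.7, 18.5 and 18.1 FPKM in LLC1 and 2.78, 2.74 and 2.82 FPKM in SCC2. Enpp2 and Nes were also below the parent in SCC1, at means of 13.2 and 6.16 FPKM, and were lower again in SCC2, with differences from SCC1 of -0.72 and -0.92 on the log2 scale.

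The other large falls covered several kinds of gene. Disp2, related to the Dispatched protein that releases Hedgehog ligands, fell by 2.503, from 9.69, 9.71 and 9.81 FPKM to 0.877, 0.977 and 0.8297 FPKM, and Rundc3a, a RUN domain gene of nerve cells, fell by 2.09. Both were above the parent in SCC1, at means of 18.3 and 15.04 FPKM. Sema3f, a secreted semaphorin, fell by 2.54 and Rgs16, which speeds the turn-off of G proteins, fell by 2.26. Crabp1, a binding protein for retinoic acid, fell by 2.11 and Glipr2 fell by 3.098. That the SCC2 libraries of these genes lay wholly below the LLC1 libraries was a condition of their choice. Disp2, under 1 FPKM in every SCC2 library, passed the level filter only through LLC1.

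Some falls ended near no signal. For 22 genes LLC1 had a mean of at least 2 FPKM and every SCC2 library was under 0.2 FPKM. Over the 3 libraries of a line, these genes had 69 to 2707 fragments in LLC1 and 0 to 71 in SCC2, and their change on the log2(FPKM + 1) scale depends on the pseudocount. The highest in the parent was Dipk2a, at 5.38, 5.53 and 5.22 FPKM in LLC1 and 0.02798, 0.0542 and 0 FPKM in SCC2, followed by Tpbg, the gene of the trophoblast glycoprotein (mean 4.72 FPKM in LLC1), Tmem98 (4.597 FPKM), the surface glycoprotein gene Cd34 (4.45 FPKM) and Mgp, the gene of matrix Gla protein (4.24 FPKM). Hoxb9, the imprinted gene Peg3, the myosin gene Myo5c, the junction gene Cgnl1, the sulfotransferase gene Chst2, Rgl3 and the glycosyltransferase gene Galnt12 made up the other 7 of the 12 most abundant. All 12 were lower in SCC2 by limma's test, a direction that their choice by level had fixed.

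Chromosome 9 held 12 of the 22 genes, though it held 5.58% of the tested genes. They included Dipk2a, Tpbg, Myo5c, Cgnl1, Chst2 and Rgl3. In SCC1, 13 of the 22 genes were also under 0.2 FPKM in all libraries, so low signal there was not particular to SCC2. Only Tmem98 and Ly9 had a mean of at least 2 FPKM in SCC1. Tmem98 was at 5.18, 4.75 and 5.46 FPKM in the SCC1 libraries and 0.0383, 0.149 and 0 FPKM in the SCC2 libraries, and Ly9, the gene of a receptor of the SLAM family of immune cells, at 6.66, 6.56 and 6.72 FPKM and 0.0442, 0.0429 and 0 FPKM.

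The opposite pattern, every LLC1 library under 0.2 FPKM and a mean of at least 2 FPKM in SCC2, was met by Cd24a alone. Krt13 and Smoc2, given below, missed it through a single LLC1 library above that limit. Cd24a encodes a small glycosylated surface protein. It was at 0.121, 0.125 and 0.159 FPKM in LLC1 and 3.504, 3.11 and 3.901 FPKM in SCC2. The SCC1 mean was 0.0652 FPKM, so the SCC2 libraries stood above both other lines. Near-identical copies of a gene could share reads with it, and this was not examined.

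**Figure D2:**
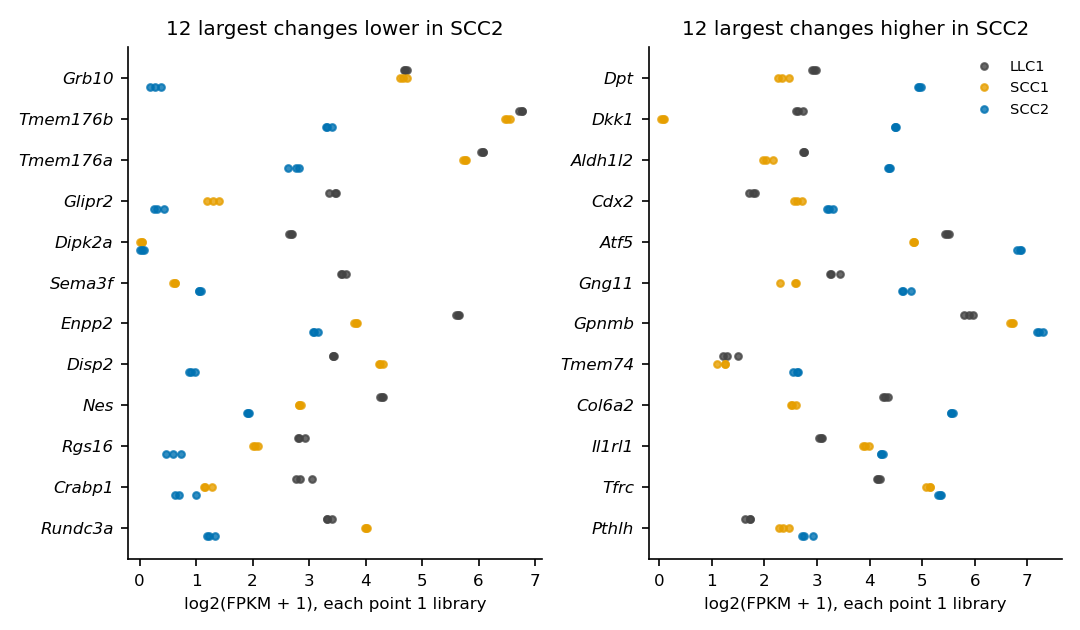
Levels on the log2(FPKM + 1) scale of the 12 genes with the largest fall and the 12 with the largest rise in SCC2 against LLC1 (higher mean at least 5 FPKM), with a point for each library of LLC1 (grey), SCC1 (orange) and SCC2 (blue). The 3 points of a line lie close together, and SCC1 sits with LLC1 for Grb10, with SCC2 for Dipk2a, near SCC2 for Tfrc, and beyond LLC1 for Dkk1 and Disp2.

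The largest rise was that of Dpt, the gene of dermatopontin, a small protein that binds decorin and collagen fibres. It was at 6.496, 6.68 and 6.93 FPKM in LLC1 and 29.2, 29.6 and 30.4 FPKM in SCC2, 4.44-fold higher, and the SCC1 mean was 4.12 FPKM. The fitted change was 1.998 (SE 0.050, limma adjusted p 5.20e-11), and the gene lies at chr1:164796644-164824266. Dpt is one of the fibroblast markers given above, among which Col3a1 also rose, from a mean of 575 to 699 FPKM. Dcn went from 3.02 to 2.104 FPKM and Pdgfra from 5.18 to 3.04 FPKM. The others in the table were not tested. Of these, Col1a1 went from 0.461 to 0.211 FPKM and Pi16 from 0.401 to 0.179 FPKM, with Fap at or near 0. Lum went from 0.725 to 0.994 FPKM and Col1a2 from 0.0877 to 0.139 FPKM. Dkk1, a secreted inhibitor of Wnt receptors, was at 5.62, 5.19 and 5.08 FPKM in LLC1 and 21.3, 21.7 and 21.2 FPKM in SCC2. In SCC1 Dkk1 was near no signal, at 0.0688, 0.04802 and 0.0244 FPKM, so the subclones lay on opposite sides of their parent. Gpnmb, a glycoprotein of lysosomes and melanosomes, was at 61.3, 54.7 and 58.7 FPKM in LLC1 and 144, 149 and 156 FPKM in SCC2.

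Further rises were seen in surface and signalling genes. Tfrc, the transferrin receptor, was at 16.9, 16.7 and 17.3 FPKM in LLC1 and 39.4, 38.2 and 39.9 FPKM in SCC2. Il1rl1, the receptor of the cytokine IL-33, rose by 1.16, Gng11, a G protein gamma subunit, by 1.36, Pthlh, the parathyroid hormone-like hormone, by 1.11, and Tmem74 by 1.27. Cdx2, a homeobox factor of the intestine, went from 2.52, 2.26 and 2.45 FPKM to 8.91, 8.12 and 8.44 FPKM. That the SCC2 libraries of these genes lay wholly above the LLC1 libraries was likewise a condition of their choice. Aldh1l2, Atf5 and Col6a2, also among the 12, are described with their families.

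A set of 61 genes was at least 2-fold lower in SCC2 than in each of the other lines (0.586% of all tested), and 15 were at least 2-fold higher than in each (0.144%). Among those with a mean of at least 5 FPKM in the higher line, those that stood lowest by the smaller of both changes included Grb10, Tmem176b, Tmem176a, Disp2, Rundc3a, Crmp1, Cdc42ep5, Selenop and Rgs16. The 10 that stood highest were Dpt, Dkk1, Aldh1l2, Atf5, Gng11, Tmem74, Col6a2, Trib3, Chac1 and Pycr1. Over all genes, SCC2 and SCC1 differed at 7936 (76.2%), with 3892 higher in SCC2 (37.4%) and 4044 lower (38.9%). The comparisons of each subclone with LLC1 share the LLC1 libraries, so their values are given side by side only. The comparisons of SCC2 with SCC1 and with LLC1 likewise share the SCC2 libraries, so a like direction in both is given as values and not as support.

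Genes that cells switch on when amino acids are short or proteins misfold were raised. Under such stress the kinases that phosphorylate eIF2 slow translation in general but let the transcription factor ATF4 be made, and ATF4 with its partners raises amino acid transporters, synthesis enzymes and tRNA synthetases. Among ATF4 and CHOP stress factors and effectors, 17 of 25 tested genes rose and 4 fell, with a median change of 0.26 against 0.01 over all genes. Among the enzymes of serine synthesis and folate one-carbon metabolism, 17 of 23 rose and 3 fell (median 0.39). With chromosome medians taken out the median was 0.23. In that setting the genes of each subclone were shifted by the median change of their chromosome from LLC1, and LLC1 was left unchanged. Of the 23 genes of cytosolic aminoacyl-tRNA synthetases and their partners, 20 rose and 2 fell (median 0.32). The lists used here share some genes, so their counts are not independent of each other.

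Of the factors, Atf5 rose most. It was at 44.7, 42.5 and 43.4 FPKM in LLC1 and 115, 116 and 111 FPKM in SCC2, 2.62-fold higher, with a fitted change of 1.37 (SE 0.025, limma adjusted p 3.05e-12). SCC1 was on the other side of the parent, at 27.4, 27.6 and 27.7 FPKM. Atf4 itself was at 268, 264 and 256 FPKM in LLC1 and 333, 331 and 346 FPKM in SCC2, and the 3 SCC2 libraries lay above all others. Ddit3, the gene of CHOP, rose from 5.13, 4.88 and 5.55 FPKM to 10.1, 8.22 and 8.06 FPKM. Trib3, a pseudokinase that feeds back on ATF4, rose by 1.08, and Chac1, which breaks down glutathione, by 1.005. Eif4ebp1, which restrains cap-dependent translation, rose by 0.38. Cebpb, a partner factor, went the other way, from 74.3, 72.9 and 77.9 FPKM to 54.3, 52.8 and 53.6 FPKM, and Klhl24, Ero1a and Eif2ak1 also fell. The 4 eIF2 kinase genes themselves changed little: Eif2ak1 fell by 0.12, while Eif2ak2, Eif2ak3 and Eif2ak4 did not pass the test, with changes of -0.083, 0.021 and -0.084.

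The serine and one-carbon route rose along its length. Phgdh and Psat1, the enzymes of its first steps, were at 177 and 205 FPKM on average in LLC1 and at 262 and 359.9 FPKM in SCC2. Psat1 was at 206, 203 and 207 FPKM in the LLC1 libraries and 355, 359 and 366 FPKM in the SCC2 libraries, 1.75-fold higher (fitted change 0.81, SE 0.017, limma adjusted p 1.33e-11). Psph, which completes serine, rose by 0.87. Shmt2 and Mthfd2, which pass the one-carbon unit from serine to folate in mitochondria, rose by 0.79 and 0.64, and Sfxn1, the mitochondrial serine carrier, by 0.53. Aldh1l2, the mitochondrial formyl-folate dehydrogenase, went from 5.71, 5.77 and 5.66 FPKM to 20.03, 19.5 and 19.8 FPKM and had the largest change of the list. The cytosolic enzyme Shmt1 fell by 0.12, Amt of the glycine cleavage system by 0.34, and the mitochondrial folate carrier Slc25a32 by 0.36.

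Other amino acid enzymes did not move as a whole. Of 22 tested genes of asparagine, proline, glutamate and sulfur amino acid metabolism, 10 rose and 7 fell, with a median change of 0.064 (0.041 with chromosome medians taken out). Those that rose included Asns, asparagine synthetase, at 107, 105 and 102 FPKM in LLC1 and 170.4, 174 and 177 FPKM in SCC2. Aldh18a1 and Pycr1, which make proline, rose by 0.75 and 1.005, Gpt2, a mitochondrial alanine aminotransferase, by 0.86, and Pck2, the mitochondrial PEP carboxykinase, by 0.76. Glul, glutamine synthetase, fell from 29.7, 28.98 and 28.6 FPKM to 17.2, 16.5 and 17.4 FPKM.

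Amino acid transporters had 11 of 20 members higher and 5 lower, and their median of 0.10 was 0.19 with chromosome medians taken out and -0.0127 when genes of any level were admitted. The light and heavy chains of the leucine and glutamine exchanger led the list. Slc7a5 was at 104, 99.7 and 106 FPKM in LLC1 and 193, 199 and 196 FPKM in SCC2, 1.89-fold higher. Slc3a2, its heavy chain, was at 22.6, 21.4 and 21.9 FPKM in LLC1 and 38.8, 38.9 and 39.998 FPKM in SCC2. Slc7a1 for basic amino acids rose by 0.64, Slc6a9 for glycine by 0.56 and Slc1a5 for neutral amino acids by 0.44, while Slc38a1, another neutral amino acid carrier, fell by 0.40.

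Nearly the whole set of cytosolic tRNA synthetases was higher in SCC2. Iars, for isoleucine, was at 52.3, 52.1 and 49.5 FPKM in LLC1 and 89.3, 91.5 and 90.8 FPKM in SCC2, and Aars, for alanine, at 48.2, 48.05 and 48.3 FPKM and 73.5, 72.5 and 73.1 FPKM. Eprs, Sars, Cars and Gars rose by 0.53, 0.51, 0.46 and 0.42. Hars and Qars were the 2 that fell, by 0.15 and 0.26, and lie on chromosomes 18 and 9, whose genes were lower as a whole. Vars did not pass the test, with a change of 0.011. The synthetases of mitochondria did not share this pattern: 7 of 19 rose and 4 fell.

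The counts against SCC1, with the same SCC2 libraries, were as follows. Of the ATF4 and CHOP genes, 15 of 25 were higher in SCC2 than in SCC1 and 8 lower. Of the serine and one-carbon enzymes the counts were 16 and 4 of 23, of the transporters 11 and 5 of 20, and of the tRNA synthetases 15 and 7 of 23. The amino acid enzymes split, with 10 higher and 10 lower of 22.

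The promoters of these genes were searched for TGATGNAA, the composite element to which ATF4 binds with C/EBP partners, on both strands, in the 300 bases that run from 250 before to 50 after the transcription start (RefSeq, GRCm38.p6). Of the 113 tested genes in the 5 lists, 88 matched the promoter table, with 109 promoters. The letters were present in 17 of the 109 promoters (15.6%) against 1304 of all 32851 promoters (3.97%). The 17 promoters belonged to 17 genes, and all 17 were higher in SCC2: Aars, Asns, Atf3, Chac1, Gars, Got1, Iars, Jdp2, Nupr1, Pck2, Pycr1, Slc1a4, Slc7a11, Tars, Trib3, Vldlr and Yars. None of the 23 promoters of the serine and one-carbon enzymes held it, though 17 of the 23 tested genes of that list rose. A match describes the sequence, not binding. The lists hold genes of processes that ATF4 raises, so their share of matches depends on how they were chosen. How many of all 1219 genes with the letters rose was not counted. Windows are shown for 4 called genes, picked by the smallest adjusted p among those with the element before the start. The windows show both orientations of the element, in capitals, on the strand of the gene from 5′ to 3′. They lie at chr6:7693210-7693269 (minus strand) for Asns, chr8:111033710-111033769 (plus) for Aars, chr14:55540143-55540202 (plus) for Pck2 and chr11:120643812-120643871 (minus) for Pycr1, with the near end of the element 16, 105, 96 and 96 bases before the start.
Asns: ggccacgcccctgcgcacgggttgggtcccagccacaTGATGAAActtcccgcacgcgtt
Aars: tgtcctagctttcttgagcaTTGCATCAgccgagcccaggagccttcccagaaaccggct
Pck2: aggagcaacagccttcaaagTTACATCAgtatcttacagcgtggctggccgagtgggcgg
Pycr1: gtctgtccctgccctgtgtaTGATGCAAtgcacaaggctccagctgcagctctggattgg

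Chaperones of the endoplasmic reticulum rose by less but almost throughout. These proteins fold newly made secreted and membrane proteins, and the unfolded protein response raises them through ATF6 and XBP1. Of 27 tested genes, 22 rose and 2 fell, with a median of 0.13. Hspa5, the main chaperone of the compartment, was at 371, 375 and 369 FPKM in LLC1 and 471, 471 and 474 FPKM in SCC2, a change of 0.34 (SE 0.014, limma adjusted p 1.60e-09). Herpud1, which takes part in degradation of misfolded proteins, had the largest change, from 23.7, 24.9 and 24.3 FPKM to 38.9, 39.3 and 38.5 FPKM. Pdia6 and Hsp90b1 rose by 0.25 and 0.25, and Xbp1 and Syvn1 by 0.19 and 0.20. Derl1 and Crebrf fell. Heat shock proteins of the cytosol and mitochondria had 12 of 23 higher and 4 lower, with a median of 0.08. The ER chaperones were also mostly higher than in SCC1, with 20 of 27 higher and 5 lower.

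The ER stress element, CCAAT followed by any 9 bases and CCACG, searched on both strands of the same RefSeq promoters, was present in 8 of the 24 promoters of the ER list that matched (33.3%) and in 39 of all 32851 (0.119%). Of the 8 genes, 7 were higher in SCC2 and none lower, Creld2 being the one that did not pass the test. Over the whole list 22 of 27 were higher, and the list was chosen as genes of this response. The windows of Hspa5, Pdia6, Hsp90b1 and Syvn1 are shown for comparison of the element, in capitals, which reads in reverse in Hsp90b1. They lie at chr2:34772005-34772064 (plus), chr12:17266471-17266530 (plus), chr10:86705512-86705571 (minus) and chr19:6046512-6046571 (plus).
Hspa5: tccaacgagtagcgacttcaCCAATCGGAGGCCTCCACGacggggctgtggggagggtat
Pdia6: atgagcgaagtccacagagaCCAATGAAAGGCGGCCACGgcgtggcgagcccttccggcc
Hsp90b1: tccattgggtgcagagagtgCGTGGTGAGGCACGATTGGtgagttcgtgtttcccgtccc
Syvn1: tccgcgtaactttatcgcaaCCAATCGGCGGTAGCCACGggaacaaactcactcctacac

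Genes of lipid synthesis went the other way. SREBP-2 and SREBP-1, made from Srebf2 and Srebf1, raise cholesterol and fatty acid genes when sterols are low. Of 29 tested genes of cholesterol synthesis and uptake, 25 fell and 3 rose, with a median of -0.25. Those that rose included Hmgcs1, which acts early in the route and lies on chromosome 13, and Insig2. With chromosome medians taken out, 24 of the 29 were lower and 0 higher, beside 29.8% lower and 28.8% higher over all genes. Acat2 was at 40.3, 38.7 and 39.6 FPKM in LLC1 and 22.7, 20.2 and 19.5 FPKM in SCC2, and Mvd, mevalonate diphosphate decarboxylase, at 32.4, 33.2 and 33.6 FPKM and 20.1, 19.3 and 18.9 FPKM. Tm7sf2, a sterol reductase, was 1.93-fold lower, and Insig1, Sqle and Fdps fell by 0.46, 0.37 and 0.30. Srebf2 was 1.16-fold lower, a fall that turned to 0.0418 higher with chromosome medians taken out.

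Of 31 genes of fatty acid synthesis and desaturation, 18 fell and 5 rose (median -0.13). Acss2, which makes acetyl-CoA from acetate, was at 20.2, 19.8 and 19.7 FPKM in LLC1 and 10.3, 10.3 and 9.93 FPKM in SCC2. Scd2, a desaturase, was at 573, 578 and 579 FPKM in LLC1 and 446, 438 and 449.6 FPKM in SCC2. Its relative Scd1 fell by 0.42, Fads1 by 0.43, Acly, which makes cytosolic acetyl-CoA from citrate, by 0.44, and Srebf1 by 0.48. The members that rose were Acsl5, Elovl1, Elovl7, Gpam and Hacd2. Against SCC1, 15 of the 29 cholesterol genes were lower in SCC2 and 8 higher. Of the 31 fatty acid genes, 17 were lower and 9 higher. For SCC1 against LLC1 the median was -0.19 for the cholesterol genes and -0.04 for the fatty acid genes. Lower cholesterol genes were therefore not particular to SCC2. The sterol response element TCACNCCAC was present in 2 of the 62 matched promoters of both lists (3.23%) against 408 of 32851 (1.24%). Its genes were Hmgcs1, which rose, and Acsl1, which did not pass the test, so neither was called lower.

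**Figure D3:**
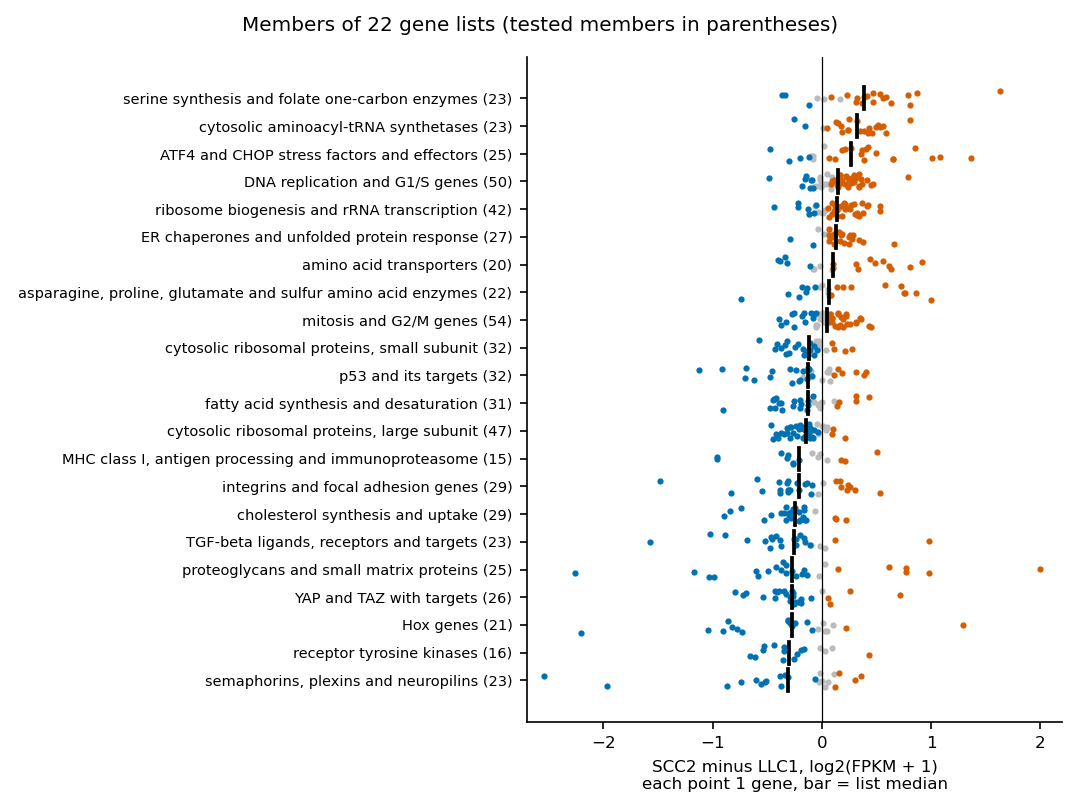
Change between SCC2 and LLC1 on the log2(FPKM + 1) scale of the tested members of 22 gene lists, a point for each gene (orange rose, blue fell, grey did not pass limma's test) and a bar at the median of the list, with the number tested in parentheses. The medians run from 0.39 for serine and one-carbon enzymes at the top to -0.31 for semaphorins, plexins and neuropilins at the bottom.

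Ribosomal protein genes were lower while genes that build ribosomes were higher. Of 47 tested genes of the large cytosolic subunit, 38 fell and 3 rose (median -0.15), and of 32 of the small subunit 21 fell and 4 rose (median -0.12). With chromosome medians taken out, 45 of 47 and 26 of 32 were lower. Rpl4 was at 1348, 1354 and 1296 FPKM in LLC1 and 969.6, 971 and 986 FPKM in SCC2. Rps14 was at 1363, 1358 and 1411 FPKM in LLC1 and 937, 941 and 902 FPKM in SCC2, the largest fall of both lists. The members that rose were Rpl10, Rpl35a and Rpl41 of the large subunit and Rps23, Rps4x, Rps12 and Rps20 of the small one, of which Rpl10 and Rps4x are on the X chromosome, Rps23 on chromosome 13 and Rpl35a on chromosome 16. The rises of Rpl10 and Rps23 turned to changes of -0.0180 and -0.0862 with chromosome medians taken out. Ribosomal protein genes have many near-identical copies, and reads may be split between them.

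Among genes of ribosome biogenesis and rRNA transcription, 28 of 42 rose and 7 fell (median 0.14). Heatr1, which takes part in making the small subunit, was at 16.3, 16.4 and 15.9 FPKM in LLC1 and 24.3, 23.7 and 23.5 FPKM in SCC2. Utp15, of the same machinery, rose by 0.53, Rrn3, which brings RNA polymerase I to its promoters, by 0.42, and Nop58, Gnl3 and Dkc1 by 0.34, 0.30 and 0.38. Heatr1 and Utp15 lie on chromosome 13. With chromosome medians taken out, 21 of 42 were higher and 2 lower. Against SCC1 the order was the reverse, with 9 of 42 higher in SCC2 and 24 lower.

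Of 50 genes of DNA replication and the G1/S step, 31 rose and 8 fell, by a little (median 0.15). Taking out chromosome medians left 24 higher and 7 lower, with a median of 0.054. Of 54 genes of mitosis and G2/M, 24 rose and 13 fell (median 0.052), which is nearer the share over all genes, and with chromosome medians taken out 30 rose and 9 fell (median 0.092). Ccne2, the cyclin that opens S phase, was at 7.21, 6.98 and 7.14 FPKM in LLC1 and 12.6, 13.4 and 13.01 FPKM in SCC2. Ccnb1, the mitotic cyclin, was at 68.6, 69.5 and 68.4 FPKM in LLC1 and 94.8, 95.3 and 93.2 FPKM in SCC2 and lies on chromosome 13. Rrm2 and Tk1, which supply nucleotides, rose by 0.32 and 0.36. Mki67, a marker of cycling cells, went from 67.4, 69.4 and 65.8 FPKM to 79.1, 75.5 and 75.02 FPKM, a change of 0.18, and Pcna and Cdk1 rose by 0.12 and 0.19. Ccnd1 rose by 0.092, which did not pass the test after quantile normalization. Against SCC1 the replication genes split, with 19 of 50 higher in SCC2 and 23 lower.

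Myc was at 189, 183 and 181 FPKM in LLC1 and 227, 227 and 236 FPKM in SCC2, with no overlap, and lies on chromosome 15, whose genes were lower as a whole. Trp53 was at 120.4, 121 and 124 FPKM in LLC1 and 135, 133 and 137 FPKM in SCC2. The list of p53, which halts the cycle or starts cell death after damage, and its targets was more often lower: 18 of 32 tested genes fell and 6 rose, with a median of -0.13. Plk2 was at 6.24, 6.52 and 6.22 FPKM in LLC1 and 2.47, 2.29 and 2.32 FPKM in SCC2. Pmaip1, a death factor, fell by 0.91, Btg2 fell by 0.62 and Trp53inp1 fell by 0.48, while Cdkn1a, the p21 inhibitor, fell by 0.12, a change that turned to 0.0023 higher with chromosome medians taken out. Most of these genes were higher in SCC1 than in SCC2: 24 of 32 were lower in SCC2 than in SCC1 and 3 higher, with a median difference of -0.44.

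YAP and TAZ are coactivators of the Hippo pathway that bind TEAD factors and respond to cell shape and contact. The list of these genes with their TEAD partners, regulators and targets was mostly lower in SCC2. Of 26 tested genes, 21 fell and 4 rose (median -0.27). Yap1 itself was at 49.2, 51.03 and 52.2 FPKM in LLC1 and 42.8, 40.3 and 42.2 FPKM in SCC2. Axl, a receptor kinase, was at 137, 137 and 134 FPKM in LLC1 and 108, 108 and 106 FPKM in SCC2, and Amotl2, a target that feeds back on YAP, at 12.2, 12.4 and 12.9 FPKM and 6.92, 6.83 and 6.52 FPKM. All of these were apart between the lines. Crim1, F3 (tissue factor) and Tead2 fell by 0.43, 0.39 and 0.41. Those that rose were Foxf2, by 0.72, Lats1, Wwtr1 (the gene of TAZ) and Myof. SCC1 did not differ from SCC2 in one direction on this list, with 12 of 26 higher in SCC2 and 8 lower.

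The TEAD letters GGAATG were present, on either strand, in 13 of the 23 matched promoters of the list (56.5%), against 4817 of all 32851 (14.7%). The 11 genes with it comprised 10 that fell and Wwtr1, which rose. Over the whole list 21 of 26 fell, and the list was chosen to hold YAP and TAZ targets. Windows of Axl (chr7:25788924-25788983, minus strand) and Amotl2 (chr9:102717719-102717778, plus strand) show it in both orientations, in capitals.
Axl: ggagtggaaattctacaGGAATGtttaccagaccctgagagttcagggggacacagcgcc
Amotl2: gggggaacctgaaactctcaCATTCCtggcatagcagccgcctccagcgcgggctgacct

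The TGF-beta pathway was lower at the levels of ligand, receptor and SMAD. Of 23 tested genes, 18 fell and 2 rose (median -0.26, and -0.11 for SCC1 against LLC1). Tgfb1, the ligand, was at 14.2, 13.7 and 14.2 FPKM in LLC1 and 6.04, 6.68 and 6.51 FPKM in SCC2, 2.19-fold lower (limma adjusted p 5.96e-10), and Tgfbr2, its receptor, at 20.98, 20.9 and 21.6 FPKM and 11.4, 10.8 and 10.8 FPKM. SCC2 libraries were below all LLC1 libraries for both. Acvr1b, an activin receptor, fell by 0.69 and Smad4, the shared SMAD, by 0.46. The 2 that rose were Ltbp4 and Thbs1. Thbs1, the gene of thrombospondin, which can release TGF-beta from its latent form, went from 12.9, 12.6 and 12.2 FPKM to 26.3, 24.7 and 26.3 FPKM.

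BMP signalling genes were divided, with 7 of 16 higher and 7 lower, but the 3 tested Id genes, which BMP signals raise, fell. Id3 was at 128, 123 and 125 FPKM in LLC1 and 65.2, 67.002 and 66.3 FPKM in SCC2. Id1 and Id2 fell by 0.79 and 0.58, and the coreceptor gene Rgma by 0.90.

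Insulin and IGF genes had 15 of 27 lower and 3 higher (median -0.16). Besides Grb10 the largest fall was that of Igfbp4, a secreted protein that binds IGFs, which was at 202, 202 and 209.7 FPKM in LLC1 and 73.8, 74.6 and 76.8 FPKM in SCC2. Its SCC1 mean was 222 FPKM, near the parent, and the difference between the subclones was -1.55 on the log2 scale (limma adjusted p 1.01e-13). Igf1r, the receptor, fell by 0.35, Igfbp6 by 0.49, Pik3cb by 0.58 and the RNA-binding protein gene Igf2bp1 by 0.72.

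Receptor tyrosine kinases were mostly lower, with 12 of 16 lower and 1 higher (median -0.30, and -0.205 for SCC1 against LLC1). Met, the HGF receptor, was at 17.6, 18.5 and 18.1 FPKM in LLC1 and 12.4, 11.7 and 12.3 FPKM in SCC2, and Egfr at 6.62, 7.31 and 6.81 FPKM and 4.1997, 3.88 and 4.01 FPKM. Pdgfra and Ddr1 fell by 0.61 and 0.52. The member that rose was Ddr2, a collagen receptor, from 64.9, 65.6 and 65.5 FPKM to 88.6, 89.1 and 87.6 FPKM. Erbb2, Fgfr1 and Ror2 did not pass the test.

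Wnt genes had 14 of 26 lower and 4 higher (median -0.17, and -0.15 for SCC1 against LLC1). With the inhibitor Dkk1 up 4.04-fold, the ligand Wnt7b fell from 15.5, 15.2 and 16.004 FPKM to 7.798, 7.63 and 7.13 FPKM, and Fzd6, a receptor, was 3.37-fold lower. Ctnnb1, the gene of beta-catenin, was at 209.8, 207 and 208 FPKM in LLC1 and 156, 155 and 156 FPKM in SCC2. Kremen1, a coreceptor of Dkk proteins, fell by 0.72. The receptors Fzd4 and Fzd8 rose by 0.62 and 0.59, and Gsk3b by 0.34.

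Semaphorins, their plexin and neuropilin receptors and the CRMP proteins that act downstream had 13 of 23 lower and 4 higher, with the lowest median of the lists shown, -0.31. For SCC1 against LLC1 the median was -0.24. Sema3f was at 10.8, 11.04 and 11.6 FPKM in LLC1 and 1.12, 1.06 and 1.07 FPKM in SCC2. Crmp1 was at 5.64, 4.898 and 5.73 FPKM in LLC1 and 0.659, 0.733 and 0.5203 FPKM in SCC2, but at 14.9, 15.6 and 16.05 FPKM in SCC1. Sema4g, Sema4c, Sema6d and Sema6b fell by 0.87, 0.74, 0.60 and 0.52. The falls were mostly in ligands: 10 of the 13 lower members were semaphorins, the others being Crmp1 and the plexin genes Plxna4 and Plxnb2. Nrp2, Plxnd1, Dpysl3 and Sema3a rose.

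Matrix genes changed in both directions. Of 13 tested collagen genes, 6 rose and 5 fell. Col6a2 was at 19.4, 18.1 and 18.6 FPKM in LLC1 and 46.9, 45.96 and 45.6 FPKM in SCC2, 2.46-fold higher, and its partner chain Col6a1 at 86.2, 86.7 and 86.8 FPKM and 125, 124 and 123 FPKM. In SCC1 both were below the parent, at means of 4.82 and 30.5 FPKM. Col18a1, whose C-terminal fragment is endostatin, was at 148, 149 and 151 FPKM in LLC1 and 76.3, 75.1 and 74.02 FPKM in SCC2, and Col5a3 fell by 1.43. Of 25 proteoglycans and small matrix proteins, 17 fell and 6 rose (median -0.27, and -0.28 for SCC1 against LLC1). Fn1, the gene of fibronectin, was at 448, 448 and 450.1 FPKM in LLC1 and 338, 337 and 330.4 FPKM in SCC2. Sdc2, a syndecan, fell by 0.60, and Mgp was near no signal in SCC2. Those that rose were Dpt, Thbs1, Bgn and the proteoglycan genes Gpc1, Vcan and Sdc1, the last 3 by 0.77, 0.77 and 0.62.

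Genes of adhesion and of the plasminogen system were more often lower than higher. Of 29 integrin and focal adhesion genes, 19 fell and 8 rose (median -0.21, and -0.15 for SCC1 against LLC1). Once chromosome medians were taken out, 15 fell and 7 rose, with a median of -0.069. Itga3, a laminin-binding integrin chain, was at 42.8, 45.2 and 47.5 FPKM in LLC1 and 15.8, 15.7 and 15.02 FPKM in SCC2, 2.91-fold lower, while SCC1, at a mean of 43.3 FPKM, was near the parent. Vcl (vinculin), Pxn (paxillin) and Tns2 fell by 0.55, 0.29 and 0.39, and Itgb1, the shared beta chain, rose by 0.26. Plau, the urokinase that activates plasminogen, was at 89.2, 89.02 and 89.9 FPKM in LLC1 and 34.2, 35.3 and 34.3 FPKM in SCC2. With Serpine2, Procr and F3 it was among 10 of 16 genes of that system that fell, and 4 rose, led by Serpinb6a at 0.65.

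Cytoskeletal genes were lower where they changed most. Of 23 actin, myosin and smooth muscle genes, 12 fell and 5 rose. Tpm1, a tropomyosin, was at 140.3, 143 and 139.99 FPKM in LLC1 and 83.2, 80.4 and 84.6 FPKM in SCC2, and Myh9, non-muscle myosin, at 175, 182 and 181 FPKM and 135, 129 and 128 FPKM. Cald1 and Myh10 fell by 0.53 and 0.60, and Tpm4 rose by 0.23. Of the keratins and epithelial genes, 6 of 28 passed the level filter. Krt18 and Krt8, which pair in simple epithelia, were at 227, 222 and 220.1 and 114, 113 and 112 FPKM in LLC1 and at 155, 158 and 157 and 77.2, 74.7 and 73.9 FPKM in SCC2. Krt19 and Krt80 also fell, while Krt13 rose from 0.215, 0.0949 and 0.101 FPKM to 2.45, 2.62 and 2.06 FPKM, as did Cd24a. Among mesenchymal genes, Snai2 rose by 0.84 while Snai1 fell by 0.58, Sparc by 0.58 and Tnc by 1.17, and the list of 21 had 7 higher and 10 lower.

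Genes of iron handling changed in both directions. The transferrin receptor rose as given above, while Ftl1 and Fth1, the chains of the storage protein ferritin, were at 2224, 2204 and 2270.5 and 2148, 2169 and 2018 FPKM in LLC1 and at 1399, 1404 and 1378 and 1649, 1675 and 1698 FPKM in SCC2. Neither ferritin gene overlapped between the lines. Steap3, which reduces iron in endosomes, rose by 0.62 and Slc39a14, an iron and zinc importer, by 0.46. The related reductase genes Steap1 and Steap2 fell by 0.58 and 0.46, and the iron importer gene Slc11a2 fell by 0.20. Slc25a37, the mitochondrial iron carrier, fell by 0.53 and Cp, ceruloplasmin, by 0.55. In all, 13 of the 22 were lower and 8 higher. Their median of -0.19 was -0.096 once chromosome medians were taken out. Ftl1 has close copies, and its SCC1 mean was 3901 FPKM, above the parent.

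NRF2 targets and glutathione genes had 15 of 31 lower and 10 higher. Gsta4 and Mgst2, which conjugate or reduce with glutathione, fell by 1.07 and 0.92, Gstm1 went from 159.6, 155 and 155 FPKM to 115, 117 and 119.7 FPKM, and Gclm, of the enzyme that starts glutathione synthesis, fell by 0.39. Mgst3 and Sqstm1 rose by 0.76 and 0.29. Against SCC1, 21 of the 31 were lower in SCC2 and 6 higher.

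MHC class I genes, whose products present peptides to T cells, were lower. Of 15 tested genes of MHC class I and antigen processing, 8 fell and 3 rose (median -0.21). H2-K1 was at 10.5, 11.2 and 10.8 FPKM in LLC1 and 5.44, 4.92 and 4.93 FPKM in SCC2, 2.12-fold lower (limma adjusted p 1.91e-07). H2-D1 was at 129, 128 and 133 FPKM in LLC1 and 98.2, 103 and 100.5 FPKM in SCC2, and H2-T23 fell by 0.96. B2m, the shared light chain, was at 279, 273 and 284 FPKM in LLC1 and 232, 229 and 235 FPKM in SCC2. The 3 that rose were the peptide transporter genes Tap1 and Tap2 and the trimming peptidase gene Erap1. MHC genes are similar to each other, so reads may be shared among them, and the H2 genes lie on chromosome 17, whose median change was -0.13. Against SCC1, 9 of the 15 were lower in SCC2 and 3 higher.

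Among checkpoint and NK-cell ligands, 9 of 16 fell and 4 rose. Nectin2, a ligand of the receptors DNAM-1 and TIGIT, was at 3.79, 3.77 and 4.29 FPKM in LLC1 and 0.578, 0.8399 and 0.551 FPKM in SCC2. Vsir, the gene of VISTA, was at 3.95, 3.89 and 3.79 FPKM and 1.403, 1.39 and 1.33 FPKM. Vsir was apart between the lines. Nectin2 passed the level filter only through LLC1, so it had to be lower. Cd276 and Raet1d fell by 0.39 and 0.54, and Lgals3, the gene of galectin-3, rose by 0.44. Cytokine genes and their receptors had 13 of 27 lower and 6 higher. Il11 was at 2.81, 2.79 and 2.84 FPKM in LLC1 and 0.949, 0.783 and 0.554 FPKM in SCC2. It too passed the level filter only through LLC1. Stat3 and Socs3, which act downstream of the receptor family of Il11, changed by -0.62 and -0.75. Mif, an abundant cytokine gene, rose by 0.27.

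Hox genes, which record position along the body axis and sit in 4 clusters, were lower in 14 of 21 tested and higher in 2 (median -0.28). Taking out chromosome medians left 11 lower and 4 higher, with a median of -0.18. The 7 tested genes of the Hoxb cluster were lower. Of these, Hoxb3, Hoxb6, Hoxb8 and Hoxb9 passed the level filter only through LLC1, so they had to be lower, while Hoxb2, Hoxb4 and Hoxb7 were above 1 FPKM in every library of both lines. The 7 genes followed each other among tested genes over chr11:96271457-96354012 (GRCm38), from Hoxb9 to Hoxb2, and changed by -2.21 to -0.73, the only run of more than 3 neighbouring genes with changes of at least 1.5-fold in one direction. Hoxb9 was at 3.47, 3.604 and 3.98 FPKM in LLC1 and 0, 0.0397 and 0 FPKM in SCC2. Hoxb2 was at 6.94, 7.16 and 7.34 FPKM in LLC1 and 3.102, 3.596 and 4.14 FPKM in SCC2, and Hoxb7 at 2.85, 3.46 and 3.25 FPKM and 1.19, 1.07 and 1.47 FPKM. Several of these levels are low, and with a filter of 5 FPKM 5 Hox genes were called lower.

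In the Hoxa cluster, Hoxa11 rose from 0.304, 0.2404 and 0.255 FPKM to 1.74, 2.39 and 2.202 FPKM, having passed the level filter only through SCC2, and its neighbour Hoxa10 rose by 0.22. Hoxa3, Hoxa4 and Hoxa5 fell by 0.24, 0.28 and 0.29, while Hoxa2, Hoxa6 and Hoxa7 did not pass the test. Hoxd8 and Hoxd9, the most abundant Hox genes in LLC1 at means of 23.2 and 23.8 FPKM, fell by 0.086 and 0.14, and Hoxd4 fell by 0.31. Hoxd3 and Hoxd10 did not pass the test. Hoxa11 was near no signal in SCC1, at a mean of 0.00785 FPKM, and Hoxb9 was so in both subclones. Against SCC1, 14 of the 21 Hox genes were higher in SCC2 and 5 lower.

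**Figure D4:**
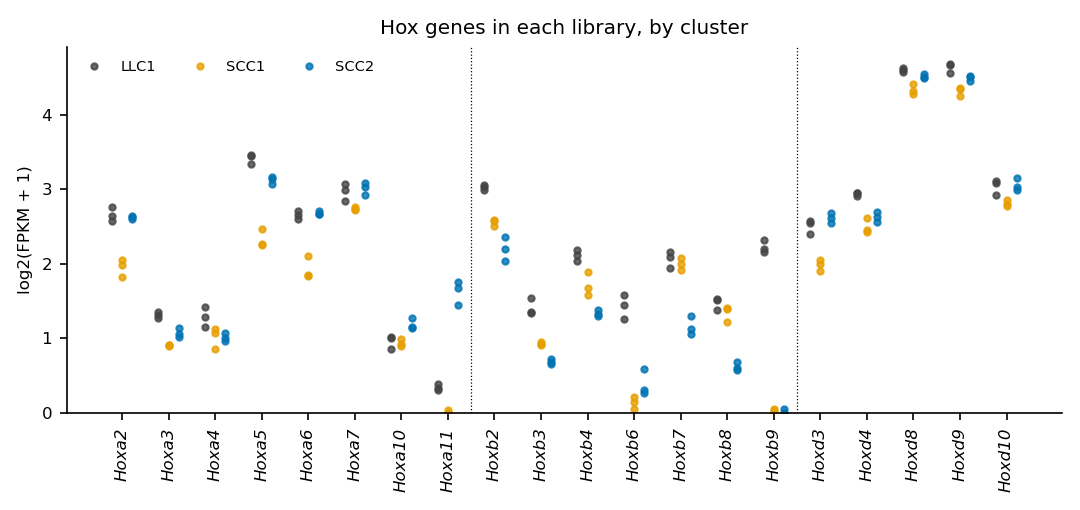
Levels on the log2(FPKM + 1) scale of tested Hox genes in each library of LLC1 (grey), SCC1 (orange) and SCC2 (blue), in the order of the Hoxa, Hoxb and Hoxd clusters, which dotted lines separate. SCC2 points lie below LLC1 points for all 7 Hoxb genes and above them for Hoxa10 and Hoxa11.

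Imprinted genes, expressed from the copy of a single parent, did not move together: 8 of 18 fell and 4 rose. Those with large changes were Grb10, Peg3, Peg10 and Peg12. Peg3 was at 3.38, 3.76 and 3.35 FPKM in LLC1 and 0.126, 0.153 and 0.0878 FPKM in SCC2, and in SCC1 at a mean of 0.0186 FPKM. Peg10 was at 31.2, 32.9 and 31.1 FPKM in LLC1 and 16.5, 15.5 and 16.2 FPKM in SCC2, and Peg12 rose from 1.05, 0.854 and 1.06 FPKM to 2.57, 2.699 and 2.67 FPKM. Of 43 homeobox and lineage genes outside the Hox clusters, 22 fell and 11 rose. Meis1, a Hox cofactor, was at 10.96, 11.3 and 10.96 FPKM in LLC1 and 5.86, 5.94 and 5.82 FPKM in SCC2. Sox4 and Tbx5 fell by 0.78 and 0.83, and Lhx2 rose by 0.91 beside Cdx2.

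Whole chromosomes shifted. Chromosome 13 had the largest rise, with a median change of 0.36 over its 394 tested genes, of which 81.7% rose. The X chromosome followed at 0.23 (75.1% rose) and chromosome 16 at 0.21 (68.2% rose). Chromosome 15 had the largest fall, at -0.25 with 80.7% of its 424 genes lower, then chromosome 18 at -0.22 (76.0% lower) and chromosome 9 at -0.16 (65.0% lower). The median deviation of any chromosome in any LLC1 library from the mean of LLC1 was between -0.0076 and 0.0088. The 3 SCC2 libraries differed from each other by 0.024 or less on every chromosome. All SCC2 libraries were above all LLC1 libraries on 12 chromosomes and below them on 8. No DNA was measured, so what these shifts reflect was not tested.

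Shifts were even along some chromosomes and uneven along others. In bins of about 50 genes, chromosome 13 stayed between 0.34 and 0.38 and chromosome 15 between -0.34 and -0.22. Chromosome 4 ran from 0.28 in its first bin to -0.27 at its lowest, and chromosome 12 from 0.17 in its first bin to -0.15 in its last. SCC1 differed from the parent in a partly different pattern. Its median was 0.10 on chromosome 13, 0.16 on chromosome 15, 0.22 on chromosome 18 and -0.33 on chromosome 4. On chromosome 9 the medians of both subclones were lower, at -0.16 in SCC2 and -0.19 in SCC1. On the X chromosome both were higher, at 0.23 in SCC2 and 0.16 in SCC1. Chromosomes 1 (0.14 and 0.06) and 8 (0.11 and 0.06) were also higher in both. With chromosome medians taken out, 2993 genes were higher (28.8%) and 3105 lower (29.8%), and 27 and 142 at 2-fold or more.

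**Figure D5:**
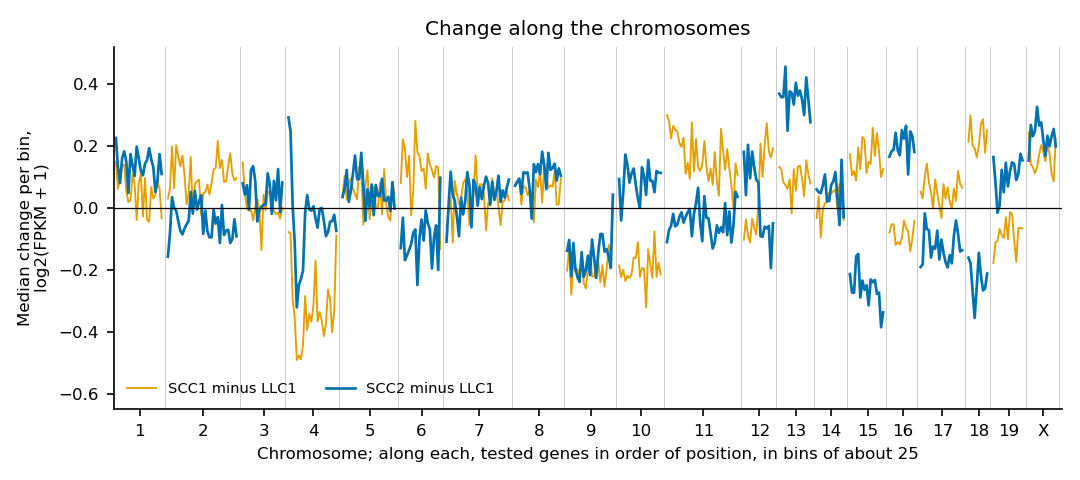
Median change against LLC1 on the log2(FPKM + 1) scale of tested genes in bins of about 25, in order along each chromosome, for SCC2 (blue) and SCC1 (orange). The SCC2 line lies above 0 along chromosomes 13, 16 and X and below 0 along 15 and 18, where the SCC1 line lies mostly above 0 (medians 0.16 and 0.22).

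Of the 140 genes lower by 2-fold or more, 28 were on chromosome 11, 23 on chromosome 9 and 15 on chromosome 15, which held 874, 577 and 424 tested genes. Besides the Hoxb run, 9 runs of 3 neighbouring tested genes changed by at least 1.5-fold in one direction. The lower ones included Samd14, Pdk2 and Itga3 (chr11:95009879-95076801), Chrnb1, Fgf11 and Nlgn2 (chr11:69784036-69837784) and Tmem205, Ccdc159 and Plppr2 (chr9:21921008-21948907). The higher ones included the acyl-CoA thioesterase genes Acot2, Acot1 and Acot6 (chr12:83987861-84111349) and Mxd3, Lman2 and Rgs14 (chr13:55325168-55384687). Neighbouring genes that overlap can share reads, and whether strand was used in counting was not stated in the labels.

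In absolute FPKM the largest differences were in housekeeping genes with small fold changes. Eef1a1, the translation elongation factor, was at 7709.7, 7777 and 7644 FPKM in LLC1 and 6316, 6315 and 6289 FPKM in SCC2, a fall of 0.29 on the log2 scale that did not pass the test after quantile normalization. Ftl1 fell by 839 FPKM and Rps2 fell by 553 FPKM. The largest gains were Pgk1 and Eno1 of glycolysis, S100a4, Rps23 and Mif. Pgk1, on the X chromosome, was at 1179.9, 1154 and 1170.4 FPKM in LLC1 and 1627, 1585 and 1590.2 FPKM in SCC2. S100a4, a calcium-binding protein of motile cells, was at 1320.3, 1298 and 1284 FPKM in LLC1 and 1629, 1633 and 1657 FPKM in SCC2, while SCC1, at a mean of 1127 FPKM, was below the parent. Anxa5 was at 485, 479.8 and 480.2 FPKM in LLC1 and 673, 679 and 689.9 FPKM in SCC2.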

How the data were processed

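RNA of LLC1, SCC1 and SCC2 cells was sequenced, 3 libraries for each line. The authors deposited one table of FPKM values, computed with cufflinks after trimming with Trimmomatic and alignment with hisat2, per the series' design text. GRCm38 and mm10 are the builds in the submitters' processing notes. Tool versions were not stated there. The labels' protocol names RNeasy extraction and a SMARTER kit, while the design text names mirVana extraction and a TruSeq stranded kit with 150 bp reads. FPKM is relative, so a change in total RNA per cell is not seen.

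Groups came from sample titles. Genes were tested on log2(FPKM + 1), pseudocount 1, in R 4.3.3 with limma 3.58.1 (moderated, with a mean-variance trend and robust prior, two-sided), the 9 libraries in one fit with line as the only factor and Benjamini-Hochberg adjustment over 10408 genes at 0.05. Fold changes on this scale understate those of low genes. Low FPKM values are whole multiples of 1 fragment: of 12270 genes with no value of 0 in the 9 libraries, 12270 gave whole numbers to within 0.001, up to a factor common to a gene. limma-voom on those fragments called 3597 genes higher and 3596 lower. The steps were tested on simulated data. Same-numbered libraries of LLC1 and SCC2 did not deviate together (correlations across genes of -0.03, -0.06 and -0.07), so the numbers were not taken as pairs.

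The genes and lists were chosen with earlier results of these data known. Of 90 lists, 88 had tested members, and no set test was run. Named genes are the 12 largest changes in each direction, up to 6 members of each list with the smallest adjusted p, genes silent in one line, genes apart from both other lines, the largest differences in FPKM and 12 chosen genes. Members that moved against their list, members of lists described in full and neighbours in runs were named after their values were seen. Positions were matched by symbol to GENCODE annotation of GRCm38 (15200 by symbol, 244 by synonym), promoters to RefSeq, GRCm38.p6. Alternatives changed the pseudocount, filter, scaling, model, chromosome medians, replicate block and the libraries used. Python 3.11.15 was used for the rest. Some genes that the rule names are not reported here.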

Additional observations from a re-analysis of the deposited data

Results flagged for a closer look

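For 8 genes the subclones lay at least 2-fold apart from LLC1 in opposite directions. SCC2 and SCC1 also differed by limma's test for these genes, a difference that this choice had fixed. Both comparisons with the parent share the LLC1 libraries. In 6 of them SCC2 was the lower subclone. Crmp1 differed by -3.34 on the log2(FPKM + 1) scale between SCC2 and SCC1 (LLC1 mean 5.42 FPKM, SCC2 0.638 FPKM, SCC1 15.5 FPKM). Rbp4, a carrier of retinol, differed by -3.21 (LLC1 23.4, SCC2 9.38, SCC1 94.9 FPKM). Ly9 differed by -2.89, with SCC2 near no signal (LLC1 2.3996, SCC2 0.02903, SCC1 6.64 FPKM). Renbp, which binds renin and acts on sialic acid precursors, differed by -2.88 (LLC1 4.37, SCC2 0.688, SCC1 11.4 FPKM). Selenop, a selenium carrier, differed by -2.79 (LLC1 5.34, SCC2 1.18, SCC1 14.1 FPKM). Bhlhb9 differed by -2.56 (LLC1 1.81, SCC2 0.0303, SCC1 5.07 FPKM). Crmp1, Ly9 and Bhlhb9 passed the level filter only through LLC1, so they had to be lower in SCC2 than in LLC1.

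SCC2 was the higher subclone for the other 2. Col6a2 differed by 3.02 (LLC1 18.7, SCC2 46.1, SCC1 4.82 FPKM), and Dkk1 by 4.42 (LLC1 5.298, SCC2 21.4, SCC1 0.0471 FPKM).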

How the results depend on the processing

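Across 17 alternatives, the counts of genes higher and lower kept within 1.5 times the main counts of 3639 and 3400. Genes at 2-fold or more higher (25) numbered 66 with a pseudocount of 0.1, 42 with 0.5, 53 after quantile normalization, 72 with limma-voom and 14 with a filter of 5 FPKM. Genes at 2-fold or more lower (140) numbered 265 with a pseudocount of 0.1, 284 with limma-voom and 60 with a filter of 5 FPKM. With the replicate block the counts were 3616 higher, 3370 lower, 25 and 140 at 2-fold, and 7871 against SCC1, close to the fit without pairing. Leaving out each library in turn gave 3417 to 3484 higher, 3188 to 3241 lower, 22 to 26 and 134 to 145 at 2-fold, and 7593 to 7933 against SCC1. Over all lists and alternatives, 1463 counts of called members were within 1.5 times the main count and 32 were not. Of changes of named genes, 2996 kept their direction and call. Hox genes called lower numbered 5 with the filter of 5 FPKM. List medians near 0 changed sign: with no filter, amino acid transporters (-0.0127), collagen processing (-0.0333), annexins and S100 proteins (-0.0034) and lung epithelial markers (-0.0122), and with chromosome medians taken out, mitochondrial tRNA synthetases (-0.0120) and the Bcl2 family (-0.0197). Ephrins went to 0.0038 and collagen processing to -0.0076 after quantile normalization, the Myc family to -0.0060 with median-of-ratios scaling, imprinted genes to 0.0132 with the 5 FPKM filter, and collagen processing ranged from -0.0139 (without SCC2 replicate 2) to 0.0253 (without LLC1 replicate 3), with -0.0134 without SCC2 replicate 3. With chromosome medians taken out, Cdkn1a (0.0023), Flna (-0.00080), Rpl10 (-0.0180), Rps23 (-0.0862) and Srebf2 (0.0418) changed sign by construction of that setting. Ccnd1 and Eef1a1 lost their call after quantile normalization and Rpl41 with chromosome medians taken out. Where not stated, the cause was not tested. Depth limits genes near 1 FPKM and below.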

Other observations

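Several gene groups not described above stood near the background of all genes. Glycolysis and lactate genes had 12 of 27 higher and 12 lower, with changes of 0.75 for Pfkp and -1.12 for Aldoc. The TCA cycle had 11 of 25 higher and 6 lower, respiratory complex I 15 of 39 higher and 12 lower, and ATP synthase 6 of 17 in each direction. Proteasome subunits had 20 of 45 higher and 10 lower, and mitochondrial ribosomal proteins 28 of 78 higher and 19 lower. Zinc finger genes named Zfp had 66 of 273 higher and 71 lower.

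Other groups held single genes with large changes. Among retinoid and aldehyde dehydrogenase genes, 10 of 18 were lower and 4 higher. Rdh10, which makes retinal, was at 48.1, 45.4 and 47.3 FPKM in LLC1 and 21.5, 20.7 and 19.6 FPKM in SCC2, and Rbp4 at 23.3, 22.9 and 24.1 FPKM and 8.78, 10.2 and 9.19 FPKM. Annexins and S100 proteins had 10 of 18 higher and 6 lower, with a change of -1.203 for Anxa6. Histone genes had 12 of 23 higher and 4 lower (median 0.23), and 7 higher and 6 lower with chromosome medians taken out (median 0.040). Matrix metalloprotease and ADAM genes had 5 of 21 higher and 10 lower, and immediate early genes 8 of 24 higher and 14 lower, with Atf3 up by 0.85. In the laminin and basement membrane list, 4 of 10 were higher and 5 lower, and Smoc2 rose from 0.282, 0.193 and 0.103 FPKM to 2.88, 2.73 and 2.86 FPKM.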
